A study of Homo sapiens with 12 samples.

Results

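The 10 genes described here are the forkhead transcription factors FOXO1, FOXO3 and FOXO4 and 7 genes known to respond to them, TXNIP, CITED2, TSC22D3, CCNG2, PIK3IP1, BCL6 and KLF15. They were found by gene name among 57133 names in the count files, of which 30296 had a count, and all 10 were present and passed the filter on low counts. RNA came from MCF10-A, a human breast epithelial cell line that is established and does not form tumours. The cells carried a doxycycline-inducible transgene and were taken after 5 days, with 3 biological replicates a group, per the series description, and 12 libraries in all. In the p21 group the transgene was the fluorescent protein mVenus fused to p21. In the p16 with Torin2 group it was mVenus fused to p16, and 100 nM Torin2 was present from 24 h after induction. In the p16 group the same fusion was induced without Torin2. In the mVenus group mVenus alone was induced, and cells not given Torin2 received DMSO, the solvent. All cells, the mVenus cells too, received 50 ng/ml doxycycline in medium with insulin, EGF, hydrocortisone, horse serum and cholera toxin. Torin2 was given to p16 cells alone, so its effect without p16 was not measured, and the labels do not say whether a line is 1 clone.

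FOXO factors sit at the end of the insulin and growth factor pathway. PI3K activates the kinase AKT, AKT phosphorylates the FOXO proteins, and 14-3-3 proteins then hold them outside the nucleus. When the pathway is quiet, FOXO proteins enter the nucleus and raise genes of growth arrest, stress resistance, apoptosis and fasting metabolism, among them receptors and adaptors of the same pathway. Torin2 inhibits the kinase mTOR in both of its complexes, and the second of these complexes phosphorylates AKT. Only transcript levels were measured, so the place and phosphorylation of FOXO proteins are not known here.

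The libraries held 13168749 to 18321114 assigned counts. Levels are CPM, counts scaled to the library total, given for replicates 1, 2 and 3 of a group. Fold changes are log2 ± SE from an edgeR quasi-likelihood test with TMM scaling over 14504 genes, and a gene is said to have risen or fallen at a Benjamini-Hochberg adjusted p under 0.05. TMM raised the log2 fold changes over mVenus above those on plain library totals by 0.11 for p16 and by 0.07 for p21. MKI67, a marker of cycling cells, stood at 3.33 ± 0.426 CPM in p21, 51.3 ± 0.876 in p16 with Torin2, 9.78 ± 0.438 in p16 and 345 ± 17.0 in mVenus libraries (SD, n = 3 each). CDKN1A, the gene of p21, stood at 882 ± 11.2 CPM in p21 and 742 ± 11.7 CPM in mVenus libraries, a log2 fold change of 0.32 ± 0.04. It fell to 258 ± 15.7 CPM with Torin2, against 552 ± 29.9 CPM in p16. Whether transgene reads count toward CDKN1A is not known here, so this small rise is a weak check of the p21 labels. CDKN2A, the gene of p16, had 0 counts in all 12 libraries (3 counts over a group would be 0.0631 CPM in p16), so it does not check the p16 labels. All 8 epithelial markers were detected in each group, at a summed 8078 to 8312 CPM in p21, 10183 to 10491 with Torin2, 14593 to 15366 in p16 and 6147 to 6433 in mVenus libraries. The single markers did not all follow these sums. Over mVenus all 8 rose in p16, against 30.9% of all genes. In p21 4 rose and 2 fell, against 28.2% and 28.3% of all genes. With Torin2 5 rose and 3 fell, against 31.2% and 36.1% of all genes. ITGB4 stood at 4759 CPM with Torin2 and 1193 CPM in mVenus libraries. Leukocyte markers summed to at most 0.109 CPM and endothelial markers to at most 4.54 CPM in any library. Fibroblast markers summed to 109 to 116 CPM in p21, 4.63 to 5.40 with Torin2, 6.48 to 7.04 in p16 and 20.6 to 21.2 in mVenus libraries, with COL1A2 and COL3A1 at 0 in p21 and DCN at 109, 111 and 106 CPM there. Mitochondrial transcripts took 6.08% to 6.98% of counts in p21, 5.66% to 6.71% with Torin2, 6.33% to 6.91% in p16 and 3.85% to 3.91% in mVenus libraries. The part of these differences in the results was not tested. In bulk RNA, fewer cells that express a gene and less of its RNA per cell cannot be told apart.

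In p21 cells the 9 genes other than KLF15, which is described apart, all rose over mVenus cells, led by CITED2 (3.73-fold), TXNIP (3.06-fold) and TSC22D3 (2.83-fold). The 9 of 9 higher stand against 28.2% of all genes tested called higher and 28.3% called lower. The genes were chosen with earlier results of these data known, so such shares only describe them. Their median log2 fold change was 1.33, against a median of -0.00 over all genes. KLF15 is left out of this count, because it passed the filter on low counts (0.640 CPM in at least 3 libraries) only through its 3 p21 libraries, so a higher call in p21 is tied to the filter. The other 9 genes would pass it with any 1 group left out. In p16 cells 8 of 10 rose over mVenus and 0 fell (also 0 at an unadjusted p under 0.05 and by DESeq2), against 30.9% of all genes called higher and 32.8% called lower, with a median of 0.46 over the 10 genes and -0.00 over all genes. TSC22D3 (log2 fold change -0.04 ± 0.05, edgeR adjusted p = 0.523) and KLF15 (-0.90 ± 0.52, edgeR adjusted p = 0.14) did not pass the test in p16 cells. On plain library totals, 22.8% of all genes were called higher and 34.8% lower in p21, and 23.8% higher and 40.6% lower in p16, when 8 of the 9 genes in p21 and 6 of the 10 genes in p16 were called higher. These comparisons share the 3 mVenus libraries.

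With Torin2 the 10 genes went both ways. Relative to p16 cells with DMSO, FOXO1 and TXNIP rose, while FOXO4, CITED2, TSC22D3, PIK3IP1 and BCL6 fell. The 2 higher and 5 lower stand against 30.3% of all genes called higher and 29% called lower, and the median was -0.38 over the 10 genes and 0.02 over all genes. FOXO3, CCNG2 and KLF15 did not pass the test. Set directly against p16 cells, p21 cells had 5 of the 9 genes other than KLF15 higher (FOXO1, FOXO3, TXNIP, TSC22D3 and BCL6) and FOXO4 lower, against 27.2% of all genes called higher and 27.2% called lower, with a median of 0.16 over the 9 genes and -0.01 over all genes. Against mVenus cells, from which they differ by both p16 and Torin2, p16 cells with Torin2 had 5 genes higher (TXNIP, CITED2, FOXO1, FOXO3 and CCNG2) and 3 lower (PIK3IP1, TSC22D3 and FOXO4), against 31.2% of all genes called higher and 36.1% called lower, with a median of 0.22 over the 10 genes and -0.03 over all genes. The Torin2 and p16 comparisons share the 3 p16 libraries with DMSO.

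**Figure D1:**
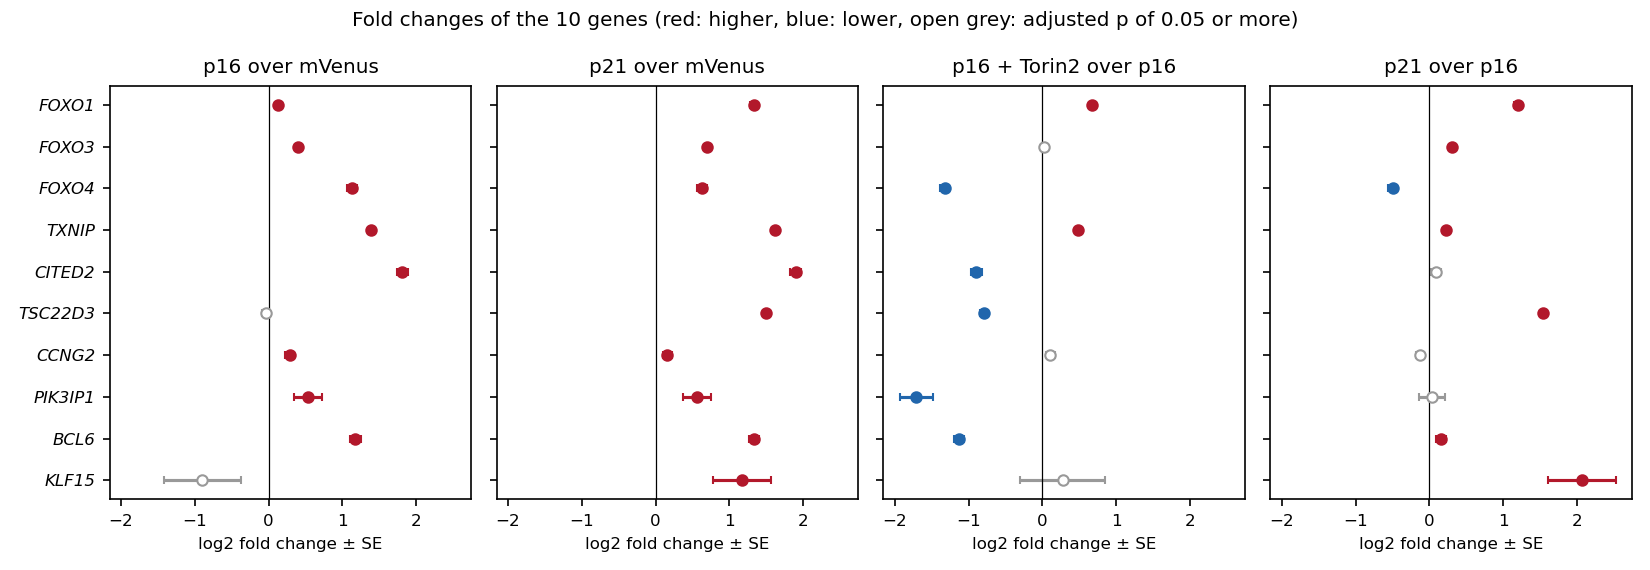
Log2 fold changes (x axis) ± SE from edgeR for the 10 genes (rows) in 4 comparisons, with filled points for genes at an adjusted p under 0.05. In p21 over mVenus all 10 points lie right of 0. KLF15 passed the filter on low counts only through its p21 libraries, so its place there is tied to the filter. With Torin2 over p16 FOXO1 and TXNIP lie right of 0 and 5 genes lie left of it.

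FOXO1 (chromosome 13, 40469953 to 40666597 in GENCODE 29 on GRCh38), the factor best known for insulin-regulated transcription in liver, stood at 127, 140.0 and 133 CPM in p21 libraries, 92.6, 92.4 and 94.8 CPM in p16 libraries with Torin2, 55.2, 58.2 and 56.6 CPM in p16 libraries and 53.5, 57.9 and 55.9 CPM in mVenus libraries. The p21 libraries were highest and the Torin2 libraries stood between them and the other 6, while p16 and mVenus libraries overlapped. FOXO1 rose 2.51-fold in p21 over mVenus (log2 fold change 1.33 ± 0.05, edgeR adjusted p = 1.6e-15) and 1.6-fold with Torin2 over p16 (0.68 ± 0.05, edgeR adjusted p = 1.54e-10). In p16 over mVenus it was called at 0.13 ± 0.05 (edgeR adjusted p = 0.0253), but that call was lost on plain library totals (0.03, edgeR adjusted p = 0.674) and without mVenus replicate 1 or 3 or p16 replicate 2 (edgeR adjusted p = 0.0535 to 0.124). The p21 over p16 difference was 1.20 ± 0.05 (edgeR adjusted p = 1.31e-14). Of the exonic bases of FOXO1, 4.32% overlap the noncoding gene LINC00598, and the counting used no strand.

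FOXO3 (chromosome 6, 108559835 to 108684774), the factor often tied to stress resistance and quiescence, stood at 116, 114 and 117 CPM in p21 libraries, 94.3, 92.8 and 98.8 CPM in p16 libraries with Torin2, 89.8, 91.3 and 91.5 CPM in p16 libraries and 72.4, 74.4 and 76.7 CPM in mVenus libraries. Its groups did not overlap, yet the step between Torin2 and p16 libraries was small. FOXO3 rose in p21 (0.70 ± 0.04, edgeR adjusted p = 6.71e-12) and in p16 (0.39 ± 0.04, edgeR adjusted p = 5.54e-08) over mVenus, and was higher in p21 than in p16 (0.31 ± 0.04, edgeR adjusted p = 1.56e-06). With Torin2 over p16 it was at 0.03 ± 0.04 (edgeR adjusted p = 0.577). FOXO3 has a near-identical copy, FOXO3B, with 7 to 29 counts a library, so its level is uncertain by the reads that map to both.

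FOXO4, the X-linked member of the family (chromosome X, 71096197 to 71103535), stood at 23.2, 23.2 and 23.0 CPM in p21 libraries, 12.9, 13.5 and 12.8 CPM in p16 libraries with Torin2, 32.5, 31.3 and 31.9 CPM in p16 libraries and 16.9, 15.6 and 14.5 CPM in mVenus libraries. Its order was unlike that of FOXO1, with p16 libraries highest and Torin2 libraries lowest. FOXO4 rose 2.19-fold in p16 over mVenus (1.13 ± 0.06, edgeR adjusted p = 3.19e-12) and 1.55-fold in p21 over mVenus (0.63 ± 0.07, edgeR adjusted p = 8.64e-08). It was lower in p21 than in p16 (-0.50 ± 0.06, edgeR adjusted p = 6.95e-07). With Torin2 it fell by 1.33 on the log2 scale, or 2.51-fold, relative to p16 (SE 0.07, edgeR adjusted p = 7.12e-13), to just under mVenus cells (-0.20 ± 0.07, edgeR adjusted p = 0.0252). That last call was lost under the DESeq2 test (adjusted p = 0.115) and in 5 other alternatives, without mVenus replicate 1 or Torin2 replicate 1 or 3 among them.

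Per transcript length, in TPM, the 3 factors together came to 152 ± 3.01 in p21, 109 ± 0.314 in p16 with Torin2, 103 ± 0.643 in p16 and 89.3 ± 1.08 in mVenus libraries (SD, n = 3 each). The p16 cells with and without Torin2 differed little in the sum and much in its parts. FOXO1 made up 48.1% of the sum with Torin2 and 30.2% in p16, and FOXO4 made up 12.2% with Torin2 and 30.7% in p16. In p21 cells FOXO1 held 49.6% and FOXO4 15.6%, against 38.7% and 19.6% in mVenus cells. FOXO3 kept a share of 34.8% to 41.7% in the 4 groups. On this scale FOXO1 alone was 31.1 ± 0.844 TPM in p16 and 34.5 ± 1.32 TPM in mVenus libraries, the opposite order to its TMM fold change. FOXO6 had 0 to 4 counts a library.

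**Figure D2:**
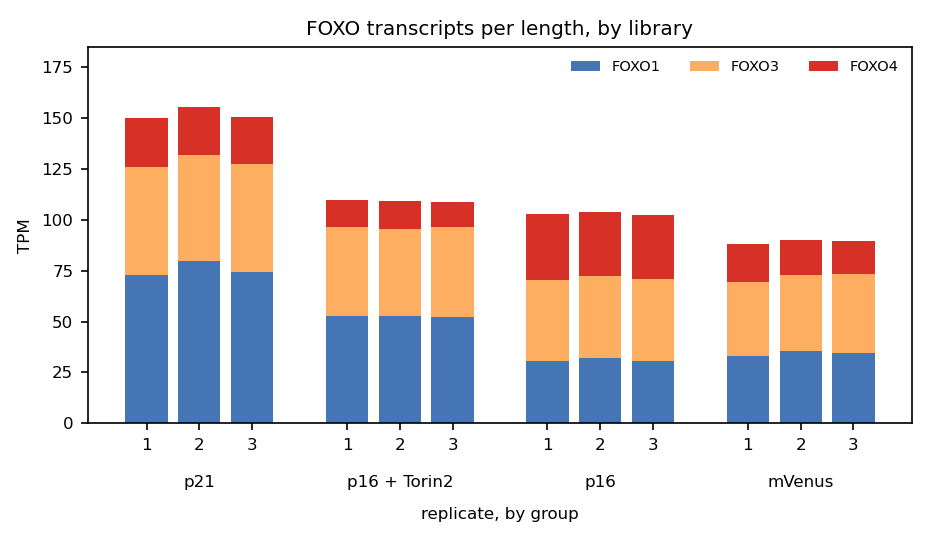
TPM (y axis, from 0) of FOXO1, FOXO3 and FOXO4, stacked for each of 3 replicates in p21, p16 + Torin2, p16 and mVenus cells. The sum is 150.3 to 156 TPM in p21 and 109 to 109.6 TPM with Torin2, where FOXO4 (red) takes 12.2% of the sum against 30.7% in p16.

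TXNIP (chromosome 1, 145992435 to 145996600) encodes an arrestin-like protein that binds thioredoxin and limits glucose uptake. It held 66.4% to 86.0% of the counts of the 10 genes in every library. It stood at 1816, 1773 and 1802 CPM in p21 libraries, 2134, 2156 and 2169 CPM in p16 libraries with Torin2, 1484, 1485 and 1517 CPM in p16 libraries and 607, 596 and 645 CPM in mVenus libraries. The groups did not overlap, and the mVenus libraries were lowest and the Torin2 libraries highest. TXNIP rose 3.06-fold in p21 (1.61 ± 0.03, edgeR adjusted p = 4.14e-19) and 2.61-fold in p16 (1.39 ± 0.03, edgeR adjusted p = 1.93e-18) over mVenus. With Torin2 it rose a further 1.40-fold over p16 (0.49 ± 0.03, edgeR adjusted p = 4.04e-11), to 3.66-fold over mVenus (1.87 ± 0.03, edgeR adjusted p = 4.36e-20).

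TXNIP is shown by its promoter because its window before the start holds the FOXO element and, next to it, the carbohydrate response element through which glucose-sensing factors act. The stretch lies at chr1:145996636-145996718 on the minus strand (RefSeq, GRCh38.p14), from -139 to -57 relative to the transcript start, with the FOXO element and both boxes of the carbohydrate element in capitals.
TXNIP: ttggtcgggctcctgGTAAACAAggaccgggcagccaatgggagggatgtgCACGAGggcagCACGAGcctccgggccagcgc
The extended element GTAAACAA, on either strand, was found in 0.954% of 35116 promoter windows, each from 250 bases before to 50 after a start. The carbohydrate element as searched, CACGAG, any 5 bases and CACGAG again, on either strand, was found in 2 windows. Its boxes were searched as the exact letters shown for TXNIP, with no variants allowed. The match in TXNIP is thus no test, and the 2 windows do not show how common carbohydrate response elements are. These matches are letters in a window and were not tested as sites.

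The shorter element GTAAACA, searched on both strands (TGTTTAC on the other), was found in 3.42% of windows and in 4.19% of 27305 genes. It was in a window of 4 of the 10 genes, TXNIP, TSC22D3, PIK3IP1 and FOXO4, each in 1 window of the 1 to 4 that the gene had. These 3 further stretches show where the letters (capitals) lie, from -147 in TSC22D3, from +17 in PIK3IP1 and from +24 in FOXO4, at chrX:107717163-107717249 (minus strand), chr22:31292455-31292483 (minus strand) and chrX:71095863-71095891 (plus strand).
TSC22D3: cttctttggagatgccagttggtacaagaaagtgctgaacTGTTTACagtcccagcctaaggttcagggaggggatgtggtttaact
PIK3IP1: taaagagaggcTGTTTACcagaacagcat
FOXO4: cccggcgagtgGTAAACAgagacgtcagg
Under Torin2 TXNIP rose relative to p16 while the other 3 genes with the letters fell, as CITED2 and BCL6 did without them, and FOXO1, also without them, rose.

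CITED2 (chromosome 6, 139371807 to 139374620) encodes a co-regulator that binds CBP and p300 and restrains HIF-1. It stood at 70.2, 70.2 and 66.5 CPM in p21 libraries, 32.9, 34.2 and 37.8 CPM in p16 libraries with Torin2, 63.2, 57.0 and 69.5 CPM in p16 libraries and 18.1, 19.3 and 20.8 CPM in mVenus libraries. The p21 and p16 libraries overlapped at the top, the Torin2 libraries lay between, and the mVenus libraries were lowest. CITED2 rose 3.73-fold in p21 (1.90 ± 0.08, edgeR adjusted p = 1.24e-14) and 3.51-fold in p16 (1.81 ± 0.08, edgeR adjusted p = 2.06e-14) over mVenus. With Torin2 it fell 1.86-fold relative to p16 (-0.89 ± 0.07, edgeR adjusted p = 7.67e-10) and stayed above mVenus (0.92 ± 0.08, edgeR adjusted p = 3.79e-09). The p21 over p16 difference of 0.09 ± 0.06 did not pass the test (edgeR adjusted p = 0.266), but did without p16 replicate 3 (0.16, edgeR adjusted p = 0.0293).

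BCL6, a transcriptional repressor (chromosome 3, 187721377 to 187745727), stood at 44.9, 45.0 and 39.8 CPM in p21 libraries, 17.6, 17.2 and 18.1 CPM in p16 libraries with Torin2, 35.6, 38.0 and 39.6 CPM in p16 libraries and 16.3, 19.1 and 18.7 CPM in mVenus libraries. Torin2 and mVenus libraries overlapped at the low level and p21 and p16 libraries were at a higher one. BCL6 rose 2.53-fold in p21 (1.34 ± 0.07, edgeR adjusted p = 1.01e-12) and 2.26-fold in p16 (1.18 ± 0.07, edgeR adjusted p = 7.17e-12) over mVenus, and fell 2.19-fold with Torin2 relative to p16 (-1.13 ± 0.07, edgeR adjusted p = 2.43e-11). Torin2 cells differed from mVenus cells by 0.04 ± 0.08 (edgeR adjusted p = 0.642). The p21 over p16 call (0.16 ± 0.06, edgeR adjusted p = 0.0371) was lost under DESeq2 (adjusted p = 0.113), with no filter on low counts and without p16 replicate 1 or 2 or p21 replicate 1 or 2 (edgeR adjusted p = 0.0639 to 0.151). Of its exonic bases, 8.24% overlap the noncoding genes AC072022.1 and AC072022.2.

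TSC22D3 (chromosome X, 107713221 to 107777342) encodes GILZ, a leucine zipper protein that both FOXO3 and the glucocorticoid receptor can induce. It stood at 152, 148 and 151 CPM in p21 libraries, 29.5, 28.4 and 31.8 CPM in p16 libraries with Torin2, 51.4, 50.7 and 49.0 CPM in p16 libraries and 53.3, 58.2 and 56.1 CPM in mVenus libraries. The p21 libraries stood alone at the top and the Torin2 libraries at the bottom. TSC22D3 rose 2.83-fold in p21 over mVenus (1.5 ± 0.05, edgeR adjusted p = 1.62e-16) and was 2.91-fold higher in p21 than in p16 (1.54 ± 0.05, edgeR adjusted p = 2.17e-16). With Torin2 it fell 1.73-fold relative to p16 (-0.79 ± 0.05, edgeR adjusted p = 1.07e-10) and was below mVenus (-0.83 ± 0.05, edgeR adjusted p = 2.69e-11). The p16 over mVenus value was called lower on plain library totals (-0.15, edgeR adjusted p = 0.0149).

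KLF15 (chromosome 3, 126342635 to 126357442), a zinc finger factor of fasting metabolism that glucocorticoids also induce, was near the limit of these libraries. It had 20, 18 and 21 counts in p21 libraries, 2, 6 and 9 with Torin2, 8, 2 and 4 in p16 libraries and 6, 13 and 10 in mVenus libraries. The p21 libraries were above all others, and the other 3 groups overlapped. Only the p21 libraries carried KLF15 past the filter, so its fitted values for p21 are given as a description. They were 1.17 ± 0.39 in p21 over mVenus, 0.84 without mVenus replicate 1, and 2.07 ± 0.46 in p21 over p16. With no filter on low counts, where every gene with a count was tested, they were 1.21 over mVenus and 2.06 over p16. With Torin2 over p16 the value of 0.27 ± 0.58 (edgeR adjusted p = 0.707) changed sign without p16 replicate 2 or Torin2 replicate 3, and no difference was detectable at this depth.

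PIK3IP1 (chromosome 22, 31281593 to 31292534) encodes a transmembrane protein that binds the catalytic subunit of PI3K and inhibits it. It stood at 4.18, 4.12 and 3.27 CPM in p21 libraries, 0.717, 1.54 and 1.17 CPM in p16 libraries with Torin2, 3.67, 3.96 and 3.34 CPM in p16 libraries and 2.62, 2.58 and 2.96 CPM in mVenus libraries. The Torin2 libraries were lowest without overlap, and the p21 and p16 libraries overlapped. PIK3IP1 fell 3.27-fold with Torin2 relative to p16 (-1.71 ± 0.22, edgeR adjusted p = 1.24e-06) and was below mVenus (-1.18 ± 0.23, edgeR adjusted p = 0.000142), with 11, 24 and 18 counts behind the Torin2 values. It rose in p21 (0.56 ± 0.19, edgeR adjusted p = 0.0147) and p16 (0.53 ± 0.19, edgeR adjusted p = 0.0188) over mVenus. The p21 call was lost without p21 replicate 2 (edgeR adjusted p = 0.0559), and the p16 call on plain library totals or without mVenus replicate 1 or 2 or p16 replicate 2 (edgeR adjusted p = 0.0521 to 0.0675).

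CCNG2 (chromosome 4, 77157151 to 77433388) encodes cyclin G2, an unconventional cyclin that accumulates in cells leaving the cycle. It stood at 61.2, 58.9 and 57.7 CPM in p21 libraries, 72.9, 69.6 and 66.5 CPM in p16 libraries with Torin2, 58.9, 60.0 and 70.1 CPM in p16 libraries and 57.8, 53.1 and 55.6 CPM in mVenus libraries. Neighbouring groups overlapped throughout, while the mVenus libraries lay apart from the p16 and Torin2 libraries and the p21 libraries from the Torin2 libraries. CCNG2 rose in p16 over mVenus (0.29 ± 0.06, edgeR adjusted p = 0.000319) and in Torin2 cells over mVenus (0.39 ± 0.06, edgeR adjusted p = 7.88e-06). In p21 over mVenus the call (0.16 ± 0.06, edgeR adjusted p = 0.0298) was lost on plain library totals (0.09, edgeR adjusted p = 0.221) and without mVenus replicate 2 or 3 or p21 replicate 1 or 2. With Torin2 over p16 (0.10 ± 0.06, edgeR adjusted p = 0.135) a call appeared with upper quartile scaling (0.14, edgeR adjusted p = 0.0486), on library totals (0.15, edgeR adjusted p = 0.0418) and without p16 replicate 3 (0.19, edgeR adjusted p = 0.00322), and in p21 over p16 (-0.13 ± 0.06, edgeR adjusted p = 0.0849) one appeared without p16 replicate 1 (-0.17, edgeR adjusted p = 0.0266).

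**Figure D3:**
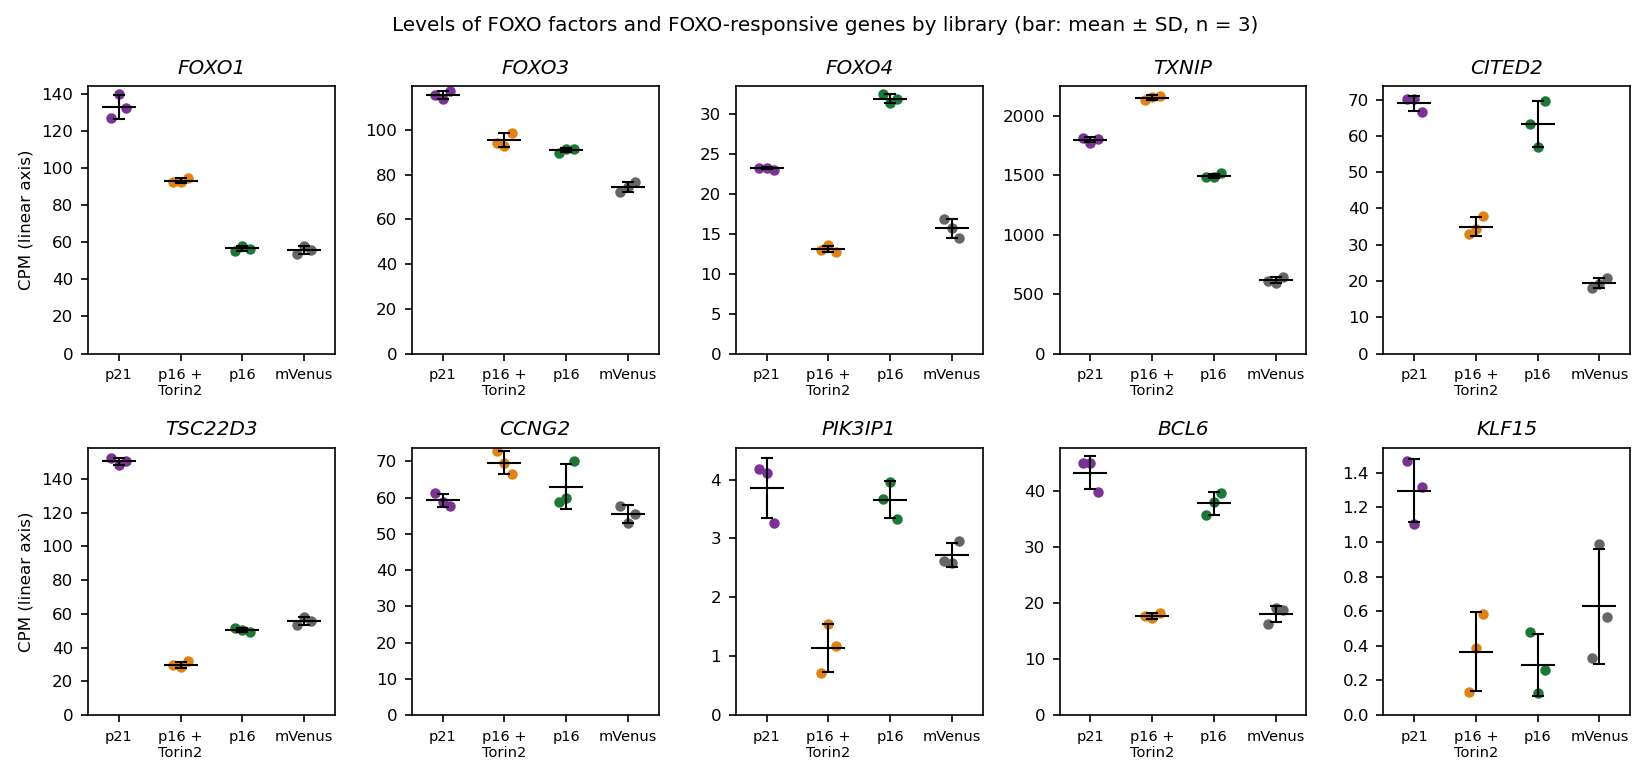
CPM (y axes, linear, from 0) of the 10 genes, with 1 point per library and a bar for the mean ± SD of 3 libraries, in p21, p16 + Torin2, p16 and mVenus cells. TSC22D3 stands at 148 CPM or more in p21 and at 58.2 CPM or less elsewhere, while FOXO4, CITED2 and BCL6 are lower with Torin2 than in p16.

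Of 31 other FOXO target genes, 25 were tested, and with Torin2 they moved in either direction. Relative to p16, 10 rose and 11 fell, or 40% and 44.0%, against 30.3% and 29% of all genes. Their median was 0.08, against 0.02 over all genes, and without HBP1 9 rose and the median was -0.03. IRS2, the insulin receptor substrate, was at 137 ± 3.54 CPM with Torin2 and 50.1 ± 2.06 CPM in p16 (1.41 ± 0.05), and INSR, the insulin receptor, at 55.4 ± 2.30 CPM with Torin2 and 21.4 ± 0.371 CPM in p16 (1.33 ± 0.06). MXI1, an antagonist of MYC, rose by 0.58 ± 0.07. The deepest falls were in TNFSF10, the death ligand TRAIL, at 1.86 ± 0.177 CPM with Torin2 and 22.1 ± 2.51 CPM in p16 (-3.61 ± 0.15), and in the stress-induced sestrins SESN3, at 4.75 ± 0.366 CPM with Torin2 and 22.7 ± 2.14 CPM in p16 (-2.29 ± 0.10), and SESN1 (-1.10 ± 0.09). Their edgeR adjusted p values ran from 5.11e-14 to 3.14e-07. HBP1, singled out after its values were seen, was called higher from 4.56, 0.256 and 3.51 CPM with Torin2, against 0.301, 0.320 and 0.327 CPM in p16, so that replicates 1 and 3 carried the call, and it passed the filter on low counts only through those 2 libraries and 1 of mVenus.

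In p21 over mVenus 17 of the 25 rose and 3 fell (68.0% and 12.0%, against 28.2% and 28.3% of all genes, median 0.46), led by the mitochondrial superoxide dismutase SOD2 at 844 ± 55.1 CPM in p21 and 266 ± 13.2 CPM in mVenus libraries (1.74 ± 0.06), TNFSF10 (1.62 ± 0.13) and the ubiquitin ligase gene FBXO32 (1.06 ± 0.05). ERBB3 (-0.73 ± 0.06), a receptor partner of EGFR and HER2, BCL2L11 (-0.33 ± 0.08) and CDKN1B (-0.32 ± 0.06) fell. In p16 over mVenus 12 rose and 8 fell (48.0% and 32.0%, against 30.9% and 32.8% of all genes, median 0.09), led by TNFSF10 (2.06 ± 0.12), GADD45A (1.0 ± 0.05) and ERBB3 (0.93 ± 0.05), with SELENOP (-1.39 ± 0.14), CDKN1B (-0.52 ± 0.07) and BBC3 (-0.50 ± 0.14) lowest. All named here passed at an edgeR adjusted p of 0.00513 or less. The direct comparison of p21 with p16 called 16 higher and 4 lower (64.0% and 16%, against 27.2% and 27.2% of all genes, median 0.36), with SELENOP (1.91 ± 0.13), SOD2 (1.21 ± 0.06) and BBC3 (1.05 ± 0.14) highest and ERBB3 lowest, at 26.9 ± 0.938 CPM in p21 and 82.7 ± 0.556 CPM in p16 (-1.66 ± 0.05, edgeR adjusted p = 4.57e-16). SELENOP shares 36.1%, BCL2L11 10.9% and SOD2 9.71% of their exonic bases with other genes, so their counts are uncertain. Against mVenus, Torin2 cells had 10 of the 25 higher, led by IRS2 (1.81 ± 0.05), and 11 lower (40% and 44.0%, against 31.2% and 36.1% of all genes, median 0.02 against -0.03), with SELENOP (-2.25 ± 0.15) and SESN3 (-1.97 ± 0.10) lowest. Without HBP1, whose call is tied to the filter, 9 of 24 were higher, 11 were lower and the median was -0.001.

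**Figure D4:**
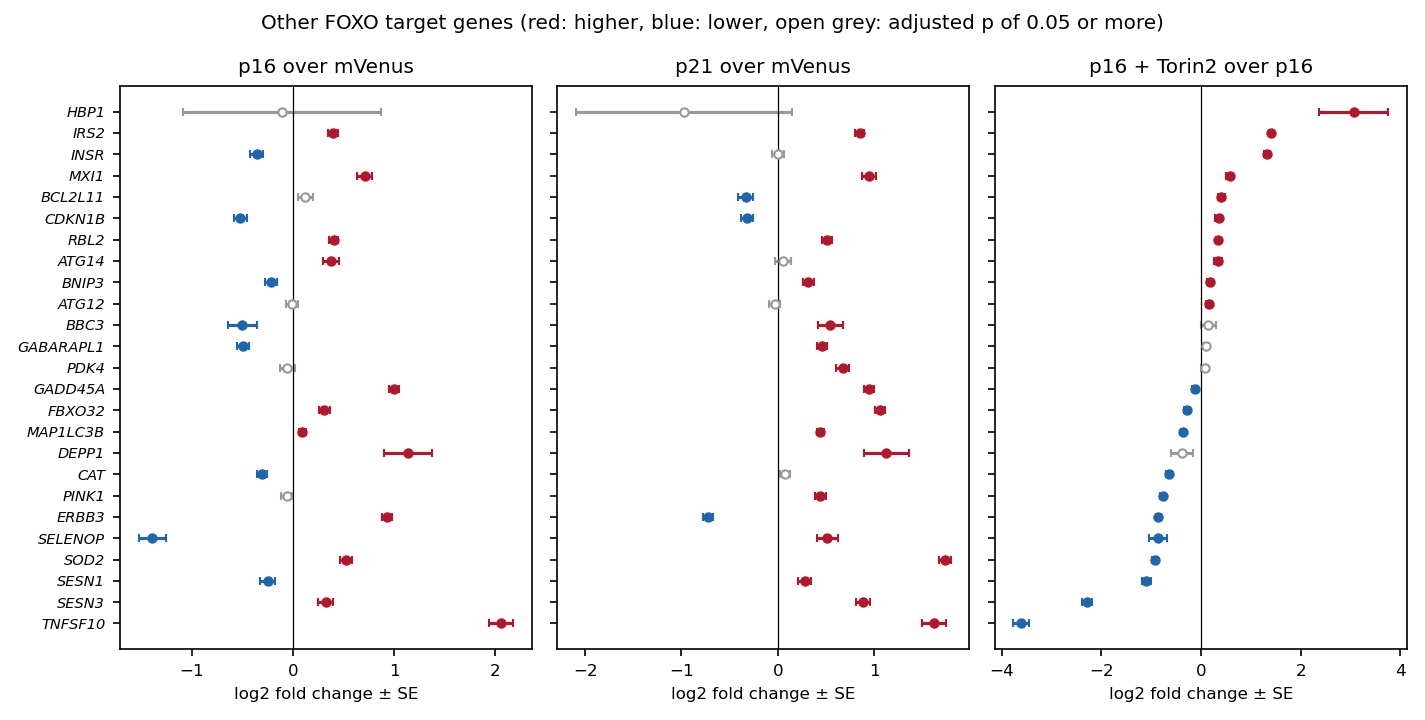
Log2 fold changes (x axis, a separate range in each panel) ± SE from edgeR for 25 other FOXO targets (rows, ordered by the Torin2 comparison) in p16 over mVenus, p21 over mVenus and p16 + Torin2 over p16. IRS2 (1.41) and INSR (1.33) lie right of 0 with Torin2 and TNFSF10 (-3.61) and SESN3 (-2.29) left of it, and the wide bars belong to HBP1.

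Upstream of the factors, 26 of 28 genes of the PI3K and AKT pathway were tested. Under Torin2, 8 rose and 11 fell relative to p16 (30.8% and 42.3%, against 30.3% and 29% of all genes, median -0.08 against 0.02), so the share that rose was near that of all genes. PIK3R3, a regulatory subunit of PI3K, was at 7.08 ± 0.627 CPM with Torin2 and 60.3 ± 2.57 CPM in p16 (-3.13 ± 0.07, edgeR adjusted p = 1.77e-18). SGK1 (-0.62 ± 0.08) and PIK3CD (-0.57 ± 0.09) also fell, while the receptor IGF1R (0.53 ± 0.04), RICTOR (0.50 ± 0.07), which defines the second mTOR complex, and TSC2 (0.43 ± 0.05) rose, all at an edgeR adjusted p of 1.12e-05 or less. PIK3R3 shares 17.4% of its exonic bases with another gene. In p21 over mVenus 8 rose and 9 fell (30.8% and 34.6%, against 28.2% and 28.3% of all genes, median 0.06 against -0.00), near the shares of all genes, with IRS1 (1.17 ± 0.16), PIK3R3 (1.0 ± 0.05) and PIK3R1 (0.78 ± 0.04) highest and the phosphatase INPP4B (-0.60 ± 0.06) lowest. In p16 over mVenus 10 rose and 11 fell (38.5% and 42.3%, against 30.9% and 32.8% of all genes, median -0.04 against -0.00), with PIK3R3 (0.68 ± 0.05) highest and PHLPP2 (-0.84 ± 0.05), a phosphatase of AKT, lowest. In p21 over p16 12 were higher and 4 lower (46.2% and 15.4%, against 27.2% and 27.2% of all genes, median 0.09 against -0.01), with IRS1 (1.85 ± 0.18) highest and INPP4B (-0.91 ± 0.06) lowest.

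A further list held FOXO6 and genes whose products modify, bind or export FOXO proteins. Of its 22 genes 20 were tested, all but FOXO6 and YWHAE. In p21 over mVenus 2 rose and 14 fell (10.0% and 70.0%, against 28.2% and 28.3% of all genes, median -0.24). In p16 over mVenus 4 rose and 10 fell (20.0% and 50.0%, against 30.9% and 32.8% of all genes, median -0.12), and the median over all genes was -0.00 in both. CDK2, a cell cycle kinase that phosphorylates FOXO1, was lowest in both, at -1.81 ± 0.07 in p21 and -2.18 ± 0.08 in p16, followed by the 14-3-3 gene YWHAH (-0.57 ± 0.04 in p21 and -0.78 ± 0.04 in p16) and the deacetylase SIRT1 (-0.49 ± 0.06 in p21 and -0.63 ± 0.06 in p16). CDK2 shares 16.8% of its exonic bases with other genes. SFN, the 14-3-3 protein sigma of epithelial cells, was at 331 ± 5.10 CPM in p21, 469 ± 1.87 with Torin2, 767 ± 17.9 in p16 and 416 ± 6.63 in mVenus libraries. It rose most of the list in p16 over mVenus (0.99 ± 0.03, edgeR adjusted p = 2.06e-16), fell in p21 over mVenus (-0.26 ± 0.03) and with Torin2 over p16 (-0.75 ± 0.03), and was lower in p21 than in p16 (-1.25 ± 0.03). With Torin2 over p16, 8 rose, SIRT1 most (0.81 ± 0.06), and 8 fell (40% each, against 30.3% and 29% of all genes, median -0.04 against 0.02). SIRT2 passed the filter on low counts only through 2 p16 libraries and 1 of mVenus, so a lower call with Torin2 is tied to the filter. Without SIRT2, 8 of 19 rose, 7 fell and the median was -0.01.

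Several of the 10 genes also answer to other signals. Of 12 glucocorticoid-responsive genes, a class that TSC22D3 and KLF15 belong to, 8 rose and 1 fell in p21 over mVenus (66.7% and 8.33%, against 28.2% and 28.3% of all genes, median 0.56 against -0.00). In p16 over mVenus 6 rose and 5 fell (50.0% and 41.7%, against 30.9% and 32.8% of all genes, median 0.07 against -0.00). ZBTB16 (1.41 ± 0.06), KLF9 (1.37 ± 0.07) and FKBP5 (0.85 ± 0.03) were highest in p21. MT2A, a metallothionein with closely similar relatives that can share its reads, was at 1659 ± 71.8 CPM in p21, 1595 ± 83.8 with Torin2, 799 ± 6.03 in p16 and 2402 ± 159 in mVenus libraries. It was the gene that fell in p21 over mVenus (-0.46 ± 0.04) and fell most of the list in p16 over mVenus (-1.48 ± 0.05). Under Torin2, 3 rose and 5 fell relative to p16 (25.0% and 41.7%, against 30.3% and 29% of all genes). MT2A rose most (0.96 ± 0.05, edgeR adjusted p = 2.74e-13), and among those that fell FKBP5 was at 658 ± 20.7 CPM with Torin2 and 1119 ± 32.8 CPM in p16 (-0.81 ± 0.03). The 7 tested glucose-sensing genes had 3 higher and 4 lower in p21 over mVenus (42.9% and 57.1%), 3 higher and 3 lower in p16 over mVenus (42.9% each), and 2 higher and 3 lower with Torin2 over p16 (28.6% and 42.9%), against the shares of all genes given above for these comparisons. Among them ARRDC4, the arrestin-like relative of TXNIP, differed in order from it. ARRDC4 was at 47.4 ± 1.48 CPM in p21, 110.1 ± 1.05 with Torin2, 125 ± 10.9 in p16 and 26.8 ± 2.24 in mVenus libraries, and was lower in p21 than in p16 (-1.43 ± 0.06, edgeR adjusted p = 3.99e-14), where TXNIP was higher (0.23 ± 0.03, edgeR adjusted p = 3.19e-06). It also fell slightly with Torin2 over p16 (-0.22 ± 0.05, edgeR adjusted p = 0.00174), where TXNIP rose.

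Across the 12 libraries, the patterns most like those of the members, by Pearson r of log2 CPM over 10871 or 10872 genes, were TNS4, FLYWCH1 and TIMP3 for FOXO1 (r = 0.980, 0.979 and 0.975) and ALDH3B1, NTPCR and NMRK1 for FOXO3 (0.988, 0.987 and 0.986). For FOXO4 they were ACAA1, KRT5 and PSMB10 (0.991, 0.991 and 0.990), and for TXNIP EPHX2, GPRC5A and FRAT2 (0.991, 0.990 and 0.987). For CITED2 they were PRDX6, ALOX15B and ABLIM3 (0.994, 0.989 and 0.989), and for PIK3IP1 MAP2K3, TMEM139 and POP4 (0.974, 0.973 and 0.968). Among the 10 genes themselves FOXO1 and FOXO3 had r = 0.86, while FOXO1 and FOXO4 had r = -0.05. The 12 libraries fall into 4 groups of 3, so these values describe the order of the groups.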

How the data were processed

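Messenger RNA was measured in 12 libraries of MCF10-A cells. Per the labels' protocols, 150000 cells were seeded, doxycycline was added 20 h later, medium was refreshed every 48 h, and poly(A) RNA was made into stranded libraries. The authors deposited raw counts per gene. Per the file headers, featureCounts 1.6.3 counted exons by gene name over GENCODE 29 with no option for strand, read pairs or multimapping reads. The submitters' processing notes name HISAT2, FastQC 0.11.3, DESeq2 and GRCh38.p7. Reads from overlapping genes are thus not separated by strand. The authors' own comparison tables were not used.

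The main test on the counts was edgeR's quasi-likelihood test (edgeR 4.0.16, R 4.3.3, filterByExpr, TMM, 1 fit of all 12 libraries, 8 residual degrees of freedom, two-sided, Benjamini-Hochberg over 14504 genes, threshold 0.05). The code was tested on simulated data. CPM use library totals, and TPM use the deposited exonic lengths. The labels do not say which cultures the replicates came from, so p-values measure the spread between these libraries. Replicates differed by more than sampling noise in every pair (chi-square over degrees of freedom from 1.65 to 6.40).

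The 10 genes and the lists were chosen with earlier results of these data known. Of each list, up to 3 called genes at either end with at least 5 CPM in the higher group are named. Alternatives were other scalings, no filter, DESeq2 1.42.0, only the libraries compared, a replicate block and each library left out; scaling by library totals was added after the data were seen. Promoters are RefSeq windows on GRCh38.p14, and all 10 genes matched. Proteins were not used here. Figures were drawn with matplotlib.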

Additional observations from a re-analysis of the deposited data

How the results depend on the processing

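Of 947 values of the 10 genes under 19 alternatives in each of 5 comparisons, 903 kept their direction and side of the threshold, and 36 of 50 gene and comparison pairs did so throughout. Among the 10 genes, TXNIP and FOXO3 kept every call. With scaling by library totals, chosen after seeing the data, 1 gene instead of 0 was called lower in p16 over mVenus (TSC22D3), since this scaling puts the median of all genes at -0.11. The values that changed sign were not past the threshold on either side. They were TSC22D3 in p16 over mVenus with no low-count filter (0.012) and BCL6 in Torin2 cells over mVenus with library totals (-0.024). With each library left out in turn, BCL6 in that comparison ran from -0.028 to 0.081, KLF15 with Torin2 over p16 from -0.22 to 0.85 (below 0 without p16 replicate 2 or Torin2 replicate 3), and PIK3IP1 in p21 over p16 from -0.025 to 0.14 (below 0 without p16 replicate 3 or p21 replicate 1 or 2). The cause was not tested. Under the same omissions, the genes called lower in p21 over p16 numbered 1 to 2, those called higher in p16 over mVenus 6 to 8, and those called higher in p21 over mVenus 8 to 10. These counts and those with the block include KLF15. Same-numbered replicates did not deviate together (r = -0.35 to 0.12 across genes, 3 of 18 pairs over 0.1), so the numbers were not taken as pairs. Differently numbered replicates ran from r = -0.19 to 0.44, with 7 of 36 pairs over 0.1. The highest was p16 replicate 3 with Torin2 replicate 1. A block by number does not cover such likeness, and its source was not tested. With a replicate block the counts of genes higher and lower stayed at 8 and 0 in p16 over mVenus, 10 and 0 in p21 over mVenus, 2 and 5 with Torin2 over p16, 6 and 1 in p21 over p16, and 5 and 3 in Torin2 cells over mVenus. Depth limits KLF15, with 2 to 21 counts a library, and PIK3IP1, with 11 to 67. Floors cover counting error only.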

Other observations

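Of 27 genes related by family to the 10 genes, 22 were tested, and they moved in both directions. In p21 over mVenus 10 rose and 7 fell (45.5% and 31.8%, against 28.2% and 28.3% of all genes), so the share that fell was near that of all genes. In p16 over mVenus 13 rose and 6 fell (59.1% and 27.3%, against 30.9% and 32.8% of all genes), and with Torin2 over p16 10 rose and 3 fell (45.5% and 13.6%, against 30.3% and 29% of all genes). Their medians were 0.19, 0.31 and 0.28, against -0.00, -0.00 and 0.02 over all genes. CITED4, a relative of CITED2, averaged 41.0 ± 1.79 CPM with Torin2, 42.7 ± 2.28 CPM in p16 and 18.3 ± 1.39 CPM in mVenus libraries (SD, n = 3 each). It rose in p16 over mVenus (1.34 ± 0.07, edgeR adjusted p = 1.78e-12) and in p21 over mVenus (1.20 ± 0.07, edgeR adjusted p = 1.82e-11).

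Among the Krüppel-like factors, with KLF15 in the same family, KLF7 averaged 65.9 ± 5.00 CPM with Torin2 and 17.2 ± 1.49 CPM in p16 (1.90 ± 0.07, edgeR adjusted p = 8.21e-15). KLF11 averaged 11.3 ± 0.607 CPM with Torin2 and 3.36 ± 0.448 CPM in p16 (1.71 ± 0.12, edgeR adjusted p = 1.27e-10), and KLF12 rose as well (0.95 ± 0.08, edgeR adjusted p = 2.3e-09). KLF9 averaged 30.5 ± 0.480 CPM in p21 and 12.4 ± 0.422 CPM in mVenus libraries (1.37 ± 0.07, edgeR adjusted p = 2.91e-13), while KLF10 (-0.80 ± 0.06, edgeR adjusted p = 7.1e-10) and KLF6 (-0.68 ± 0.04, edgeR adjusted p = 2.36e-11) fell in p21 over mVenus. CCNG1, the relative of CCNG2 and a p53 target, averaged 138 ± 6.50 CPM with Torin2 and 234 ± 21.5 CPM in p16 (-0.80 ± 0.05, edgeR adjusted p = 6.74e-11), where CCNG2 was at 0.10 ± 0.06 (edgeR adjusted p = 0.135).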
